A study of Mus musculus with 6 samples.

Results

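Aminoacyl-tRNA synthetases attach each amino acid to its tRNA, the step that reads the genetic code into protein. The genes described here are 39 members of this machinery, chosen by symbol: 20 cytosolic synthetase genes, 16 nuclear genes for mitochondrial synthetases, whose symbols end in 2, and 3 scaffold proteins without enzyme activity. All 39 were found among the 37991 gene identifiers of the count files, of which 37205 had a symbol in the GENCODE vM1 annotation, and all 39 passed the filter on low counts that left 16683 genes to test. Of 20 cytosolic synthetase genes, 19 were called higher in premalignant vs. wild type and 19 in malignant vs. wild type cells, where 19% and 24.9% of all tested genes were called higher. Of 16 mitochondrial synthetase genes 9 and 12 were called higher in these comparisons, and the difference between the groups of genes was not tested. Vars, which encodes the valyl-tRNA synthetase, was the cytosolic gene that was called in neither. Between premalignant and malignant cells, Lars was the only member called, against 6.18% of all tested genes called either way. Its call was lost without any single library but malignant replicate 1.

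The cells were pre-B cells sorted by FACS from the bone marrow of C57BL/6 mice. The labels give high B220, low IgM and low IgD for all stages, but the study's methods give that gate for wild type and premalignant cells, which also takes in pro-B cells, and a gate of B220+, IgM- and IgD- for malignant cells, so the gate cannot be told apart from the malignant stage. Wild type mice carried no transgene and were 4 to 6 weeks old, premalignant mice were heterozygous Eμ-Myc/+ mice of the same age range, and malignant mice were heterozygous Eμ-Myc/+ mice of 10 to 20 weeks with lymphoma. In this model the immunoglobulin heavy chain enhancer Eμ drives Myc in cells of the B lineage, and each lymphoma arises spontaneously in its host. Per the study's methods, wild type and premalignant mice were female and malignant mice were of both sexes, so age, and in part sex, cannot be told apart from the malignant stage. Each stage had 2 libraries, described as separate animals, and p-values measure the spread between these samples.

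Each cytosolic synthetase serves the ribosomes of the cytoplasm, and the mitochondrial enzymes serve the few proteins encoded by mitochondrial DNA. In mammals 8 of the cytosolic genes in the list (Dars, Eprs, Iars, Kars, Lars, Mars, Qars and Rars) supply the enzymes of the multisynthetase complex, which is held together by the scaffold proteins AIMP1, AIMP2 and EEF1E1. The Kars and Gars genes also supply the mitochondrial lysyl and glycyl enzymes, Eprs encodes a fused enzyme for glutamate and proline, and the cytosolic phenylalanyl enzyme is built from an alpha chain (Farsa) and a beta chain (Farsb). MYC is known to raise genes for protein synthesis, and ATF4, the transcription factor of the amino acid response, is known to raise several cytosolic synthetase genes.

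The libraries held between 30031100 and 53453055 counts, with replicate 1 the deeper library at each stage, and 3 counts corresponded to between 0.0526 and 0.108 CPM (each count scaled to its library's TMM-adjusted size). Myc was at 33.8 and 41.4 CPM in wild type replicates 1 and 2, at 1164 and 1155 CPM in premalignant and at 1732 and 1578 CPM in malignant libraries, in the order of the labels. Cd79a, a chain of the B cell receptor complex, was between 732 and 1480 CPM in all 6 libraries. All 11 pre-B markers reported here fell from wild type to premalignant cells and from wild type to malignant cells. Vpreb1, a part of the surrogate light chain, was at 115 and 131 CPM in wild type, at 9.74 and 4.88 CPM in premalignant and at 0.146 and 4.05 CPM in malignant libraries. This listed marker was therefore near its floor in malignant replicate 1, where the related gene Vpreb2 was at 0 counts. Of all tested genes 20.3% were called lower in premalignant and 24.3% in malignant vs. wild type cells. Summed levels of 10 myeloid markers lay between 1022 and 2314 CPM in wild type, between 311 and 328 CPM in premalignant and between 72.2 and 145 CPM in malignant libraries. All 10 were called lower in both comparisons with wild type. Of 8 erythroid markers 6 were called lower in both comparisons, with summed levels from 430 to 1643 CPM in wild type, from 102 to 214 CPM in premalignant and from 72.8 to 88.5 CPM in malignant libraries. For 8 T and NK cell markers the sums were 70.6 to 154 CPM, 16.5 to 36.5 CPM and 1.74 to 16.9 CPM, with 5 and 6 called lower and 1 marker at 0 in premalignant replicate 2. The 4 plasma cell markers summed to 745 to 853 CPM, 376 to 386 CPM and 324 to 328 CPM, with 3 called lower in each comparison. The part of these other cells in the values of the synthetase genes was not tested, and in bulk samples fewer cells of a type and less RNA per cell cannot be told apart.

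A gene was called where edgeR's quasi-likelihood test gave a Benjamini-Hochberg adjusted p (FDR) of at most 0.1 over all 16683 genes and the log2 fold change was at least 0.5 in size. In premalignant vs. wild type cells 31 of 39 members were called higher and none lower, against 19% of all tested genes called higher, 20.3% called lower and 39.3% called either way. No member had a negative log2 fold change at an unadjusted edgeR p under 0.05, and DESeq2 called 33 members higher and 0 lower. Both premalignant libraries lay above both wild type libraries in 37 of 39 members, which held for 36.2% of all genes, and in 0 members both lay below, against 41.2% of all genes. The exceptions were Hars2 and Lars2, whose stages overlapped. In malignant vs. wild type cells 34 members were called higher and none lower, again with 0 negative members at an unadjusted p under 0.05 and with the same counts of 34 and 0 from DESeq2. All genes gave 24.9% called higher, 24.3% called lower and 49.2% called either way in that comparison, and the stages were separated upwards in 37 members against 35.3% of all genes and downwards in 0 against 36.4%. The 2 comparisons share the wild type libraries and are therefore not independent. Without premalignant replicate 2 the count in premalignant vs. wild type cells was 19, and leaving out any single library gave 19 to 34 members there and 30 to 34 members in malignant vs. wild type cells.

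**Figure D1:**
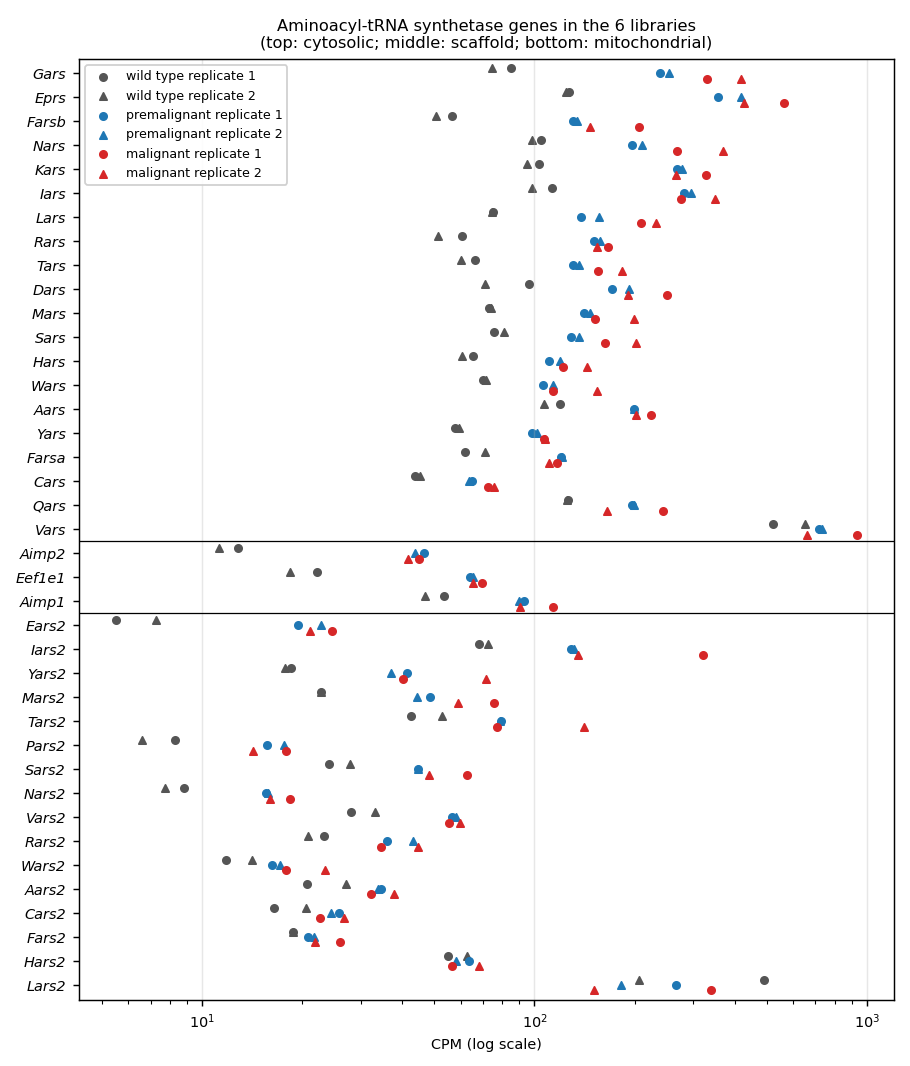
CPM of the 39 members (log scale on the x axis) in each of the 6 libraries, with circles for replicate 1 and triangles for replicate 2, in grey for wild type, blue for premalignant and red for malignant. In 37 of 39 genes both grey points lie to the left of both blue points, and Vars at the foot of the cytosolic block has the highest level in wild type cells.

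Among cytosolic enzymes the largest changes were those of Gars and Eprs. Gars, for the glycyl enzyme, was at 84.8 and 74.4 CPM in wild type, at 239 and 254 CPM in premalignant and at 330 and 418 CPM in malignant libraries. These levels rose by a log2 fold change of 1.63 ± 0.17 (SE, n = 2 per stage, edgeR adjusted p = 0.0026) from wild type to premalignant and of 2.23 ± 0.17 (edgeR adjusted p = 0.00069) from wild type to malignant cells. The stages did not overlap, and every premalignant and malignant library was above both wild type libraries. Eprs was at 127 and 124 CPM in wild type, at 357 and 419 CPM in premalignant and at 563 and 427 CPM in malignant libraries. Its log2 fold changes against wild type were 1.62 ± 0.18 (edgeR adjusted p = 0.003) and 1.98 ± 0.18 (edgeR adjusted p = 0.001), that is 3.08-fold and 3.93-fold. Malignant replicate 1 held the highest Eprs level, and malignant replicate 2 was close to premalignant replicate 2.

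Kars, Rars and Iars, further genes of the multisynthetase complex, rose by similar amounts. Kars, for the lysyl enzyme, went from 103 and 95.0 CPM in wild type to 269 and 277 CPM in premalignant and 329 and 267 CPM in malignant libraries. Rars, for the arginyl enzyme, went from 60.5 and 51.4 CPM to 151 and 158 CPM and then 166 and 154 CPM. Iars, for the isoleucyl enzyme, went from 113 and 98.6 CPM to 282 and 295 CPM and then 276 and 349 CPM. All 3 genes had log2 fold changes between 1.45 and 1.59 against wild type at both stages, and in each of them the premalignant and malignant libraries overlapped. Lars, for the leucyl enzyme, was at 75.2 and 74.3 CPM in wild type, at 138 and 156 CPM in premalignant and at 209 and 233 CPM in malignant libraries, and here all 3 stages were separated. Of the other complex enzymes, Dars rose from 96.6 and 70.8 CPM to 171 and 193 CPM and then 250 and 191 CPM, and Mars from 72.9 and 74.1 CPM to 141 and 147 CPM and then 152 and 199 CPM. Qars, for the glutaminyl enzyme, had the smallest change of the complex, from 126 and 125 CPM in wild type to 196 and 200 CPM in premalignant and 244 and 166 CPM in malignant libraries (log2 fold change 0.65 ± 0.20, edgeR adjusted p = 0.049, and 0.70 ± 0.20, edgeR adjusted p = 0.030). The 8 complex enzymes were all called higher in both comparisons, with median log2 fold changes of 1.28 and 1.54.

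Outside the complex 11 of 12 cytosolic genes were called higher in each comparison, with median log2 fold changes of 0.84 and 1.00. Nars, for the asparaginyl enzyme, was at 105 and 98.4 CPM in wild type, at 197 and 211 CPM in premalignant and at 267 and 370 CPM in malignant libraries. Tars, for the threonyl enzyme, was at 66.2 and 60.2 CPM, at 130 and 136 CPM and at 155 and 183 CPM. Sars, for the seryl enzyme, was at 75.5 and 80.8 CPM, at 129 and 136 CPM and at 163 and 201 CPM. These 3 genes were ordered alike, with wild type lowest and malignant highest and no overlap between stages. Hars, Wars, Aars, Yars and Cars, for histidine, tryptophan, alanine, tyrosine and cysteine, had log2 fold changes between 0.53 and 0.87 in premalignant and between 0.73 and 1.08 in malignant vs. wild type cells. By structural class, 8 of 9 class I genes (medians 0.78 and 0.92) and 10 of 10 class II genes (medians 1.04 and 1.41) were called higher in each comparison, Eprs being in neither list. Cars had the smallest change of the cytosolic genes called in premalignant vs. wild type cells, from 43.7 and 45.2 CPM to 64.7 and 63.7 CPM and then 72.3 and 75.4 CPM.

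Vars stood at a high level and rose by an amount that was not called. It was at 523 and 653 CPM in wild type, at 716 and 732 CPM in premalignant and at 936 and 660 CPM in malignant libraries. Both premalignant and both malignant libraries were above the wild type pair, but the log2 fold changes were 0.30 ± 0.21 (edgeR adjusted p = 0.32) and 0.44 ± 0.21 (edgeR adjusted p = 0.14). Without malignant replicate 2 the second of these became 0.70 and was called (edgeR adjusted p = 0.010). Per exon length Vars was the highest cytosolic synthetase of wild type cells, with a mean of 104.7 RPKM against 44.1 RPKM for Kars, the next gene, and 9.56 RPKM for Cars, the lowest. The lengths took all annotated exons of a gene together (5611 bases for Vars, 2249 for Kars and 4651 for Cars). Ranks by RPKM therefore depend on the annotation. In malignant cells the highest mean was that of Gars, with 156.6 RPKM, followed by Vars with 142.2 RPKM. The median over the 20 cytosolic genes was 21.0 RPKM in wild type cells, 49.2 RPKM in premalignant cells and 58.3 RPKM in malignant cells.

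The 2 chains of the phenylalanyl enzyme, which are needed in equal numbers, did not change alike. Farsa was at 62.0 and 71.0 CPM in wild type, at 120 and 121 CPM in premalignant and at 116 and 110 CPM in malignant libraries. Farsb was at 56.3 and 50.4 CPM, at 130 and 134 CPM and at 207 and 147 CPM. The ratio of Farsb to Farsa in RPKM was 1.69 and 1.32 in wild type, 2.01 and 2.06 in premalignant and 3.30 and 2.48 in malignant libraries. Its size rests on lengths that take all annotated exons of a gene together, 4538 bases for Farsa and 2444 for Farsb. Only its change between stages can therefore be read, and not an excess of either chain. The ratio was separated between all 3 stages. It was not tested with a p, since 2 against 2 libraries allow no value under 0.333 in an exact two-sided permutation test. Of the 2444 exon bases of Farsb, 265 overlap Sgpp2 on the other strand, and the library kit does not mark strand, so reads there cannot be assigned to either gene.

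The scaffold genes also rose, by unequal amounts. Aimp2 was at 12.8 and 11.2 CPM in wild type, at 46.6 and 43.6 CPM in premalignant and at 44.8 and 41.8 CPM in malignant libraries. Its log2 fold changes of 1.91 ± 0.16 (edgeR adjusted p = 0.0018) and 1.85 ± 0.16 (edgeR adjusted p = 0.00084) made it the member with the largest change in premalignant vs. wild type cells. Eef1e1 was at 22.2 and 18.4 CPM, at 64.1 and 65.4 CPM and at 69.3 and 65.4 CPM, with log2 fold changes of 1.67 ± 0.15 (edgeR adjusted p = 0.0021) and 1.73 ± 0.15 (edgeR adjusted p = 0.00090). Both genes reached their higher level in premalignant cells and the malignant libraries lay at nearly the same level. Aimp1 rose less, from 53.6 and 47.0 CPM to 92.9 and 89.6 CPM and then 114 and 90.3 CPM (log2 fold changes 0.86 ± 0.16 and 1.02 ± 0.16). In RPKM, Aimp2 was 0.371 and 0.344 times the median of the 8 complex enzymes in wild type, 0.585 and 0.503 times in premalignant and 0.509 and 0.422 times in malignant libraries. It stood below that median at every stage, on exon lengths that depend on the annotation. Aimp2 shares 487 of 1654 exon bases with Eif2ak1 on the opposite strand.

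**Figure D2:**
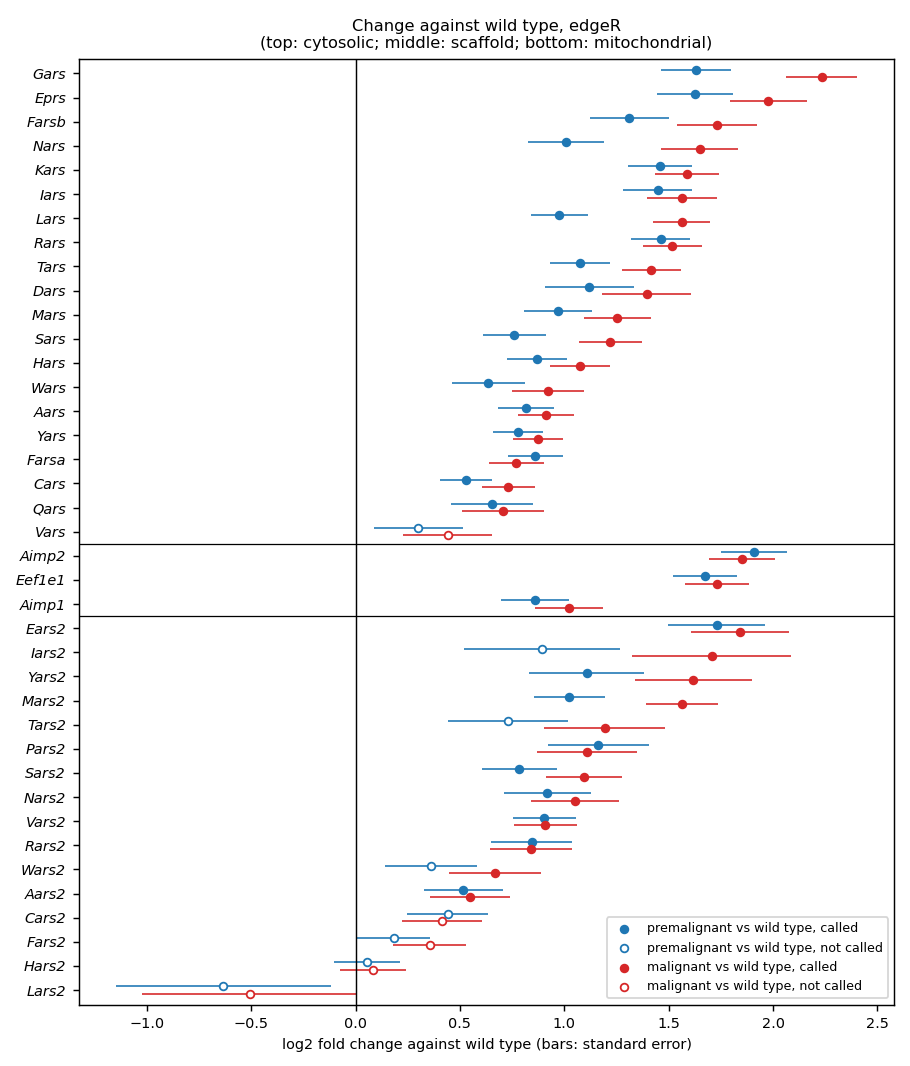
log2 fold change against wild type (x axis, bars are standard errors) for premalignant in blue and malignant in red, from edgeR with 2 libraries per stage. Filled points were called and open points were not, and the open points are Vars and 7 mitochondrial genes in blue and Vars and 4 mitochondrial genes in red.

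Some calls did not hold when a library was left out, which also leaves fewer samples. In premalignant vs. wild type cells Qars and Wars were no longer called without any 1 of the 4 libraries compared, Cars without either premalignant library, Dars, Nars and Sars without premalignant replicate 2, and Aimp1 without premalignant replicate 1. The log2 fold changes of the 6 cytosolic genes in those fits lay between 0.53 and 1.04, and that of Aimp1 was 0.84. In malignant vs. wild type cells Qars was not called without malignant replicate 1 or either wild type library, with values between 0.41 and 0.71. Total-count scaling ended the calls of Cars, Qars and Wars in premalignant and of Cars, Farsa and Qars in malignant vs. wild type cells, and upper-quartile scaling or a minimum of 10 counts in every library ended that of Cars in premalignant vs. wild type cells.

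Promoter sequences of the members were searched for 2 motifs, and a link between a match and a change in level was not tested. CACGTG, the E-box, is a sequence that MYC with its partner MAX is known to bind. TGATGNAA gives the letters of the element bound by ATF4 with a C/EBP partner. RefSeq promoter windows of 250 bases before and 50 bases from the annotated start (GRCm38.p6) matched 30 of 39 members, with Mars found as Mars1, and not Cars, Hars, Lars, Nars, Rars, Vars, Wars, Hars2 and Pars2. CACGTG, which reads the same on both strands, was present in 5 of the 30 windows (16.7%) and in 8.09% of 27025 genes. TGATGNAA, searched on both strands, was present in 5 of the 30 windows (16.7%) and in 4.51% of 27025 genes. Its 5 genes were all cytosolic enzymes (Aars, Gars, Iars, Tars and Yars), and 0 of 14 mitochondrial and 0 of 3 scaffold windows held it. The 7 genes with either motif are shown because they are all the members whose window held a match. Positions are counted from the first transcribed base as 0, sequences read 5′ to 3′ on the strand of the gene, capitals mark a match of either motif, and the 2 motifs share no bases in them.
Aars: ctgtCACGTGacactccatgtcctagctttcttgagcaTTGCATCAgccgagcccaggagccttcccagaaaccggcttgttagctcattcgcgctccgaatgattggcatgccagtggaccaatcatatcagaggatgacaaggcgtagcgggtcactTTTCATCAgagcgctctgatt
Iars: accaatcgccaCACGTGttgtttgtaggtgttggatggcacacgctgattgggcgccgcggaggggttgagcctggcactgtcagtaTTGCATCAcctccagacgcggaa
Tars: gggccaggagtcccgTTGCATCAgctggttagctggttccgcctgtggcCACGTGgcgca
Gars: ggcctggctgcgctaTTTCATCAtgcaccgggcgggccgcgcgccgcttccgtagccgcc
Yars: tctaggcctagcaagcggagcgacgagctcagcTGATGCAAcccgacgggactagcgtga
Farsb: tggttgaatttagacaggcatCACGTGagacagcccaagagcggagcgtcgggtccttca
Ears2: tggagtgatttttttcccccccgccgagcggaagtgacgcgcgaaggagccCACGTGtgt

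In GRCm38.p6 these stretches are chr8:111033692-111033871 (plus strand) for Aars, chr13:49682050-49682159 (plus) for Iars, chr15:11399629-11399688 (minus) for Tars, chr6:55037956-55038015 (plus) for Gars, chr4:129189873-129189932 (plus) for Yars, chr1:78488898-78488957 (minus) for Farsb and chr7:122067057-122067116 (minus) for Ears2. The E-box began at -146 in Aars, -69 in Iars, 19 in Tars, -39 in Farsb and 21 in Ears2. The letters of the ATF4 element began at -112 and 9 in Aars, 7 in Iars, -15 in Tars, -30 in Gars and 3 in Yars. A match describes the letters only, and no binding was measured here. Of 12 cytosolic genes listed as linked to ATF4 from background knowledge, 8 had a window and 5 of these held TGATGNAA, against 0 of 5 windows of the other cytosolic genes. All 12 listed genes were called higher in both comparisons with wild type, with median log2 fold changes of 0.97 and 1.34, and 7 of 8 other cytosolic genes were called, with medians of 0.99 and 1.24. Of all tested genes 19% and 24.9% were called higher in these comparisons. The list was chosen for a link to ATF4, so its count of the ATF4 letters is not independent of that choice. It was also chosen with earlier results known, and the difference between these medians was not tested.

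The mitochondrial synthetase genes were lower in level and changed less evenly. Their median was 7.51 RPKM in wild type, 11.5 RPKM in premalignant and 12.8 RPKM in malignant cells. Ears2, for the glutamyl enzyme, was the lowest of them per length in wild type cells and had the largest change. It was at 5.50 and 7.25 CPM in wild type, at 19.4 and 22.8 CPM in premalignant and at 24.5 and 21.1 CPM in malignant libraries. Its log2 fold changes of 1.73 ± 0.23 (edgeR adjusted p = 0.0048) and 1.84 ± 0.23 (edgeR adjusted p = 0.0022) were close to those of Eprs, which charges glutamate in the cytosol. Mars2, for the methionyl enzyme, rose from 22.8 and 22.8 CPM to 48.3 and 44.3 CPM and then 75.8 and 58.9 CPM, with no overlap between the 3 stages. Vars2, Rars2, Sars2, Nars2 and Pars2 had log2 fold changes between 0.78 and 1.16 in premalignant and between 0.84 and 1.11 in malignant vs. wild type cells and were called in both. Aars2, the smallest of those called, was at 20.6 and 27.1 CPM, at 34.4 and 33.8 CPM and at 32.1 and 37.7 CPM (log2 fold change 0.52 ± 0.19, edgeR adjusted p = 0.085, and 0.55 ± 0.19, edgeR adjusted p = 0.059).

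Iars2, Tars2 and Yars2 depended on the malignant library. Iars2, for the isoleucyl enzyme, was at 68.0 and 72.2 CPM in wild type, at 129 and 131 CPM in premalignant and at 322 and 135 CPM in malignant libraries. Only malignant replicate 1 was far above the premalignant pair, and malignant vs. wild type gave a log2 fold change of 1.71 ± 0.38 (edgeR adjusted p = 0.014) with both libraries, 0.95 without malignant replicate 1 and 2.23 without malignant replicate 2. Iars2 was not called in premalignant vs. wild type cells (0.89 ± 0.37, edgeR adjusted p = 0.12) although its stages were separated, and it was called without either malignant library (0.90 and 0.95), since all stages share an estimate of the spread. Tars2 was at 42.5 and 52.9 CPM in wild type, at 79.3 and 79.0 CPM in premalignant and at 77.1 and 141 CPM in malignant libraries, so that here malignant replicate 2 stood above the rest. In malignant vs. wild type cells it rose by 1.19 ± 0.29 on the log2 scale (edgeR adjusted p = 0.019), and the value was 0.72 without malignant replicate 2 and 1.05, not called, without wild type replicate 1. Tars2 missed the threshold in premalignant vs. wild type cells (0.73 ± 0.29, edgeR adjusted p = 0.101) and was called without either malignant library (0.74 and 0.79). Yars2 was at 18.6 and 17.8 CPM, at 41.3 and 37.1 CPM and at 40.3 and 71.6 CPM, again with malignant replicate 2 highest. Of the 8885 exon bases of Iars2, 2018 overlap Rab3gap2 on the opposite strand.

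Cars2, Fars2, Hars2 and Lars2 were called in neither comparison with wild type, and Wars2 was called in malignant cells only. Cars2 was at 16.5 and 20.6 CPM in wild type, at 25.8 and 24.5 CPM in premalignant and at 22.7 and 26.7 CPM in malignant libraries, and Fars2 was at 18.7 and 18.8 CPM, at 20.8 and 21.8 CPM and at 26.0 and 21.9 CPM. For both genes the libraries of both Eμ-Myc stages were above those of wild type, by amounts within the threshold. Wars2 was at 11.8 and 14.2 CPM, at 16.2 and 17.2 CPM and at 17.9 and 23.4 CPM (log2 fold changes 0.36 ± 0.22, edgeR adjusted p = 0.25, and 0.67 ± 0.22, edgeR adjusted p = 0.051). That Wars2, Tars2 and Iars2 were called at a single stage does not show that the stages differ, since malignant vs. premalignant gave 0.81 ± 0.37 (edgeR adjusted p = 0.29) for Iars2, 0.31 ± 0.22 (edgeR adjusted p = 0.51) for Wars2 and 0.46 ± 0.29 (edgeR adjusted p = 0.44) for Tars2.

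In premalignant vs. wild type cells the calls of Aars2 and Yars2 were lost without any 1 of the 4 libraries compared, those of Nars2 and Pars2 without wild type replicate 2 or either premalignant library, that of Sars2 without wild type replicate 1 or either premalignant library and that of Rars2 without wild type replicate 2 or premalignant replicate 2. The log2 fold changes of these 6 genes in those fits lay between 0.34 and 1.25. In malignant vs. wild type cells Wars2 lost its call without any single library but malignant replicate 1. Aars2 lost its call there without wild type replicate 1, either premalignant library or malignant replicate 2, and Tars2 without wild type replicate 1. The values of Aars2, Tars2 and Wars2 in those fits lay between 0.37 and 1.05. Cars2 was called there without malignant replicate 1 (0.54), as it was in premalignant vs. wild type cells without malignant replicate 2 (0.50). Upper-quartile scaling, total-count scaling and a minimum of 10 counts in every library each ended the calls of Aars2 in both comparisons, and both scalings ended that of Wars2 in malignant vs. wild type cells. Fitting only the stages compared ended the calls of Aars2 and Wars2 in malignant vs. wild type cells, and using no filter on low counts ended that of Aars2 in premalignant vs. wild type cells.

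Hars and Hars2 lie head to head on chromosome 18 and share 195 bases of overlapping exons on opposite strands. Hars was at 65.4 and 60.6 CPM in wild type, at 110 and 120 CPM in premalignant and at 122 and 144 CPM in malignant libraries. Hars2 was at 54.9 and 62.5 CPM, at 63.7 and 58.1 CPM and at 56.5 and 67.9 CPM. The stages overlapped in Hars2 and were separated in Hars, although the 2 genes start within the same stretch. The log2 fold changes of Hars2 were 0.05 ± 0.16 and 0.08 ± 0.16, and their sign turned negative under upper-quartile scaling (-0.033 and -0.086), under total-count scaling (-0.16 and -0.21) and with at least 10 counts required in every library (-0.010 and -0.0074), so that no direction can be given.

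Lars2, for the mitochondrial leucyl enzyme, had the largest ratio between replicates of all members in wild type (2.37) and premalignant cells (1.47) and the largest but for Iars2 in malignant cells (2.24). It was at 490 and 207 CPM in wild type, at 267 and 182 CPM in premalignant and at 339 and 151 CPM in malignant libraries. Replicate 1 was above replicate 2 at each stage, the stages overlapped, and the log2 fold changes were -0.63 ± 0.51 (edgeR adjusted p = 0.38) and -0.51 ± 0.51 (edgeR adjusted p = 0.47). Without wild type replicate 1 they were 0.13 and 0.25, and without malignant replicate 1 the second was -1.20 and was called lower (edgeR adjusted p = 0.094). The last exon of Lars2 lies at chr9:123370617-123371782 in mm9 and holds its 3′ untranslated region. A 398-base span of that exon, from 123370910 to 123371307, had 24 other matches of 81.9% to 98.8% identity on 14 chromosomes of the mm9 genome. A match on chromosome 16 lies within both Gm15564 and Kpna1, and others lie within genes such as Cd44, Gphn and Jarid2. Among genes with a match, only the level of Gm15564 is given here. It was at 6.96 and 2.41 CPM in wild type, at 3.77 and 1.63 CPM in premalignant and at 4.06 and 1.40 CPM in malignant libraries, with replicate 1 above replicate 2 at each stage as in Lars2. Per exon length Lars2 was the highest mitochondrial gene in wild type cells. Its mean was 89.8 RPKM, against 13.9 RPKM for Sars2, the next gene. Reads of such copies could have been split, dropped or counted to Lars2, so the level of Lars2 is uncertain. The part of the repeat in that level and in the difference between replicates was not tested. The 15 other mitochondrial genes summed to 372 and 412 CPM in wild type, 647 and 649 CPM in premalignant and 884 and 788 CPM in malignant libraries.

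Comparing the 17 pairs of a cytosolic and a mitochondrial gene for the same amino acid, the cytosolic gene had the larger log2 fold change in 12 pairs in premalignant vs. wild type, in 13 pairs in malignant vs. wild type and in 11 pairs in malignant vs. premalignant cells. Eprs and Fars2 each enter 2 pairs, so the pairs are not independent, and these counts were given no test. The median difference was 0.30, 0.32 and 0.14 on the log2 scale. Without wild type replicate 2 the first and second of these medians were both 0.14, and over all single libraries left out the cytosolic change was the larger in 11 to 14, 11 to 14 and 10 to 11 pairs. In malignant vs. wild type cells Lars exceeded Lars2 by 2.07, a value that was 1.33 without wild type replicate 1, where the sign of Lars2 turned, and 2.84 without malignant replicate 1. Wide gaps were also those of phenylalanine (beta chain, 1.38), histidine (0.99) and proline (0.87). The reverse held for tyrosine, valine, methionine and isoleucine in malignant vs. wild type cells, where the cytosolic minus the mitochondrial log2 fold change was -0.74, -0.47, -0.31 and -0.14. The sign for isoleucine and methionine, and the size for tyrosine and valine, depended on single libraries. Without malignant replicate 1 the sign turned for isoleucine (0.78) and methionine (0.064), without wild type replicate 1 isoleucine was at 0.0035, and without malignant replicate 2 tyrosine was at -0.27 and valine at -0.18. The ratio of Yars to Yars2 in RPKM was 1.64 and 1.76 in wild type, 1.26 and 1.45 in premalignant and 1.40 and 0.794 in malignant libraries, so malignant replicate 1 lay between the premalignant libraries and malignant replicate 2 alone was below them. The ratio of Vars to Vars2 was 18.2 and 19.1 in wild type, 12.3 and 12.3 in premalignant and 16.5 and 10.8 in malignant libraries. Both ratios were lower in every premalignant and malignant library than in either wild type library, and were not tested. Summed over genes, cytosolic enzymes were at 2104 and 2145 CPM in wild type, 3945 and 4167 CPM in premalignant and 5003 and 4758 CPM in malignant libraries, with no overlap between the stages.

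**Figure D3:**
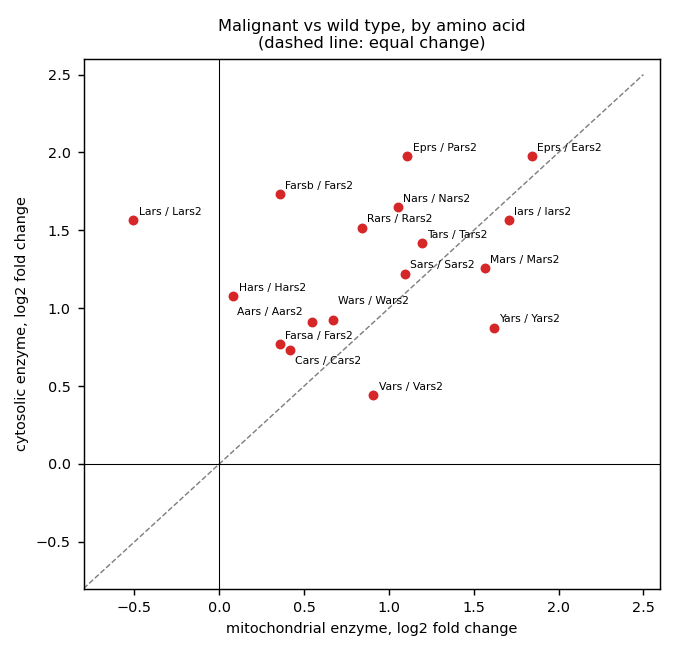
log2 fold change in malignant vs. wild type cells of the mitochondrial gene (x axis) and of the cytosolic gene (y axis) for each of 17 pairs, with a dashed line of equal change. In 13 pairs the point lies above the line, and Yars / Yars2, Vars / Vars2, Mars / Mars2 and Iars / Iars2 lie below it.

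Between malignant and premalignant cells, both of which carry the transgene, 1 of 39 members was called higher and 0 lower, against 3.73% of all genes called higher, 2.45% called lower and 6.18% called either way. At an unadjusted edgeR p under 0.05 there were 6 members with a positive and 0 with a negative change, and DESeq2 called 4 higher (Lars, Gars, Nars and Mars2) and 0 lower. Lars rose by 0.59 ± 0.13 on the log2 scale (edgeR adjusted p = 0.086), and both malignant libraries were above both premalignant libraries. The call was lost with the replicate number as a block (0.59, edgeR adjusted p = 0.109), with upper-quartile (0.50) and total-count scaling (0.50) and in a fit of only the stages compared (0.57). It was also lost without either wild type library (0.58 and 0.58), without either premalignant library (0.50 and 0.68) and without malignant replicate 2 (0.47). Nars had a log2 fold change of 0.64 ± 0.18 (edgeR adjusted p = 0.13) and Gars of 0.60 ± 0.16 (edgeR adjusted p = 0.12), with stages separated in both. Malignant libraries were separated upwards in 19 members, against 25.9% of all genes, and downwards in Farsa alone, against 25.2%. The medians were 0.24 for the cytosolic, 0.13 for the mitochondrial and 0.06 for the scaffold genes, beside 0.04 over all genes. For the earlier step the corresponding medians against wild type in premalignant cells were 0.97, 0.81 and 1.67 beside -0.08 over all genes, and in malignant cells they were 1.33, 0.98 and 1.73 beside -0.02.

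The 2 malignant libraries differed from each other more than those of the other stages. The median ratio of the higher to the lower library over the 39 members was 1.14 for wild type, 1.05 for premalignant and 1.25 for malignant cells, and it passed 1.5 in Iars2 (2.39), Lars2 (2.24), Tars2 (1.83) and Yars2 (1.77) in malignant cells and in Lars2 (2.37) in wild type cells. The differences followed the chromosome in part, a pattern that was looked for after the values of the members were seen. Over 9945 genes with a mean of at least 5 CPM, the median log2 ratio of malignant replicate 1 to replicate 2 was 0.56 on chromosome 1, between -0.41 and -0.37 on chromosomes 3, 6, 10, 12, 15, 16 and 18, and between 0.04 and 0.15 on the 12 other chromosomes. In wild type cells the medians of all 20 chromosomes lay between -0.0017 and 0.15 and in premalignant cells between -0.056 and 0.00077. Against the premalignant mean, malignant replicate 1 stood at 0.49 on chromosome 1, and malignant replicate 2 stood at 0.35 to 0.41 on the 7 chromosomes named. Chromosome 14 was higher in both malignant libraries, by 0.53 and 0.33, and carries no member.

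All 5 members on chromosome 1 (Dars, Eprs, Farsb, Iars2 and Mars2) were higher in malignant replicate 1 than in replicate 2. Of 13 members on the 7 chromosomes, 12 were lower in malignant replicate 1, and these include Gars on chromosome 6, Lars, Nars and Hars on chromosome 18, Tars on chromosome 15 and Yars2 on chromosome 16. The exception was Aimp1 on chromosome 3, with a log2 ratio of 0.34. The 21 members on other chromosomes were split, 14 higher and 7 lower. Subtracting the median of the chromosome lowered the median absolute log2 ratio of the members from 0.32 to 0.16. The genes that differed most kept much of their difference, as the log2 ratio of malignant replicate 1 to replicate 2 went from 1.26 to 0.70 in Iars2, from 1.16 to 1.08 in Lars2, from -0.87 to -0.49 in Tars2 and from -0.83 to -0.42 in Yars2. In malignant vs. premalignant cells the value of Lars minus the median of its chromosome was 0.38, that of Nars was 0.43 and that of Gars was 0.48, and the median of the cytosolic genes went from 0.24 to 0.13. Without malignant replicate 1 the members called higher than in premalignant cells were Gars, Lars, Nars, Sars, Tars2 and Yars2, and without malignant replicate 2 they were Eprs, Farsb, Iars2 and Mars2, where the lone malignant library is taken to vary like the other groups. The first 6 genes lie on chromosomes 3, 6, 16 and 18 and the other 4 on chromosome 1. The number of chromosome copies was not measured in these files, and its part in these values was not tested. Against wild type the medians of the cytosolic genes changed little when taken relative to the chromosome, from 1.33 to 1.23 in malignant cells.

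**Figure D4:**
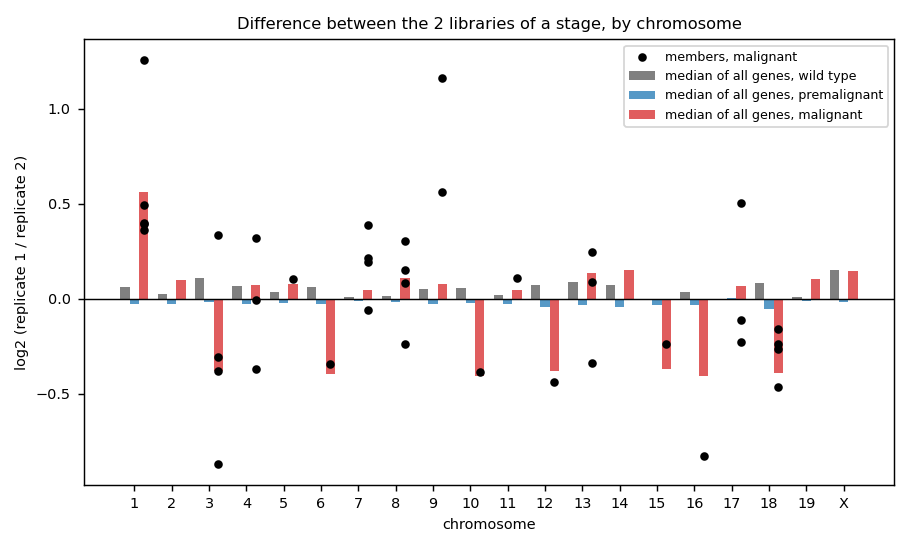
Median log2 ratio of replicate 1 to replicate 2 by chromosome (bars, grey for wild type, blue for premalignant, red for malignant, over 9945 genes) and the same ratio of the 39 members in malignant cells (black points). The red bars stand at 0.56 on chromosome 1 and between -0.41 and -0.37 on 7 chromosomes, and most members on these chromosomes lie on the same side of 0.

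Genes that act beside the synthetases were taken from a list of 12 genes, which includes Tarsl2, a synthetase gene outside the 39 members. In premalignant vs. wild type cells 8 of 12 were called higher and 0 lower, against 19% and 20.3% of all genes. In malignant vs. wild type cells 10 were called higher and 0 lower, against 24.9% and 24.3%. Both comparisons had 0 negative changes at an unadjusted edgeR p under 0.05, and DESeq2 called 8 and 10 higher and 0 lower. Ppa1, the cytosolic pyrophosphatase that removes the by-product of the charging reaction, was at 20.5 and 17.3 CPM in wild type, at 101 and 108 CPM in premalignant and at 95.4 and 178 CPM in malignant libraries (log2 fold changes 2.46 ± 0.31 and 2.85 ± 0.31). Xpot, which exports tRNA from the nucleus, was at 53.6 and 53.5 CPM, at 177 and 191 CPM and at 251 and 365 CPM (1.78 ± 0.20 and 2.52 ± 0.20). Both exceeded every member in malignant vs. wild type cells, and neither overlapped wild type. Dtd1, which removes D-amino acids from tRNA, was at 7.89 and 7.98 CPM, at 29.2 and 29.0 CPM and at 38.1 and 34.8 CPM (1.87 ± 0.16 and 2.20 ± 0.16). Trnt1, which adds the CCA end to tRNA, rose in all 3 comparisons, from 57.1 and 42.6 CPM to 97.8 and 98.5 CPM and then 169 and 166 CPM. Qrsl1, a subunit of the mitochondrial amidotransferase that makes glutaminyl-tRNA, and the mitochondrial pyrophosphatase gene Ppa2 were not called in premalignant vs. wild type cells. They were called higher in malignant vs. premalignant cells (0.76 ± 0.16, edgeR adjusted p = 0.070, and 0.71 ± 0.16, edgeR adjusted p = 0.078), as was Trnt1 (0.77 ± 0.17, edgeR adjusted p = 0.074). These were 3 of 12 genes, against 3.73% of all genes called higher. None of them passed an FDR of 0.05, and their values were not taken relative to the median of the chromosome. Mtfmt and Prorsd1 were called in no comparison.

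Of 16 genes of the amino acid response, 15 passed the filter. In premalignant vs. wild type cells 5 were called higher and 3 lower, against 19% and 20.3% of all genes, and in malignant vs. wild type cells 6 higher and 1 lower, against 24.9% and 24.3%. In malignant vs. premalignant cells 3 were called higher and 0 lower, against 3.73% and 2.45% of all genes. There 8 had a positive and 0 a negative change at an unadjusted edgeR p under 0.05, and DESeq2 called 6 higher. Asns, the asparagine synthetase, was at 1.72 and 4.79 CPM in wild type, at 16.4 and 21.4 CPM in premalignant and at 86.2 and 77.4 CPM in malignant libraries. It was called in all 3 comparisons, with log2 fold changes of 2.56 ± 0.46, 4.67 ± 0.50 and 2.11 ± 0.44. Phgdh, the first enzyme of serine synthesis, was also called in all 3, from 101 and 86.9 CPM to 287 and 288 CPM and then 458 and 573 CPM, and so was Slc3a2, a subunit of amino acid transporters, from 55.0 and 61.6 CPM to 102 and 107 CPM and then 178 and 159 CPM. Psat1 and Gcn1l1 were called higher against wild type at both stages. Atf4 itself was at 195 and 246 CPM in wild type, at 233 and 230 CPM in premalignant and at 251 and 316 CPM in malignant libraries and was called in no comparison (0.07 ± 0.18 and 0.36 ± 0.18 against wild type). Ddit3, a stress gene downstream of ATF4, was lower at both stages, from 14.9 and 25.2 CPM to 9.64 and 8.31 CPM and then 7.07 and 10.6 CPM (-1.16 ± 0.35, edgeR adjusted p = 0.048, and -1.18 ± 0.35, edgeR adjusted p = 0.034). Its exons share 68 bases with Mars on the opposite strand. Eif2ak4, the kinase that senses uncharged tRNA, was called higher in malignant vs. wild type cells (0.88 ± 0.21) and not in premalignant vs. wild type cells (0.06 ± 0.21). Sesn2 and Slc7a11 were called lower in premalignant vs. wild type cells and not in malignant vs. wild type cells, and these differences between stages did not pass the threshold in malignant vs. premalignant cells. Trib3, Chac1, Atf5, Ddit4 and Cebpb were called in no comparison.

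**Figure D5:**
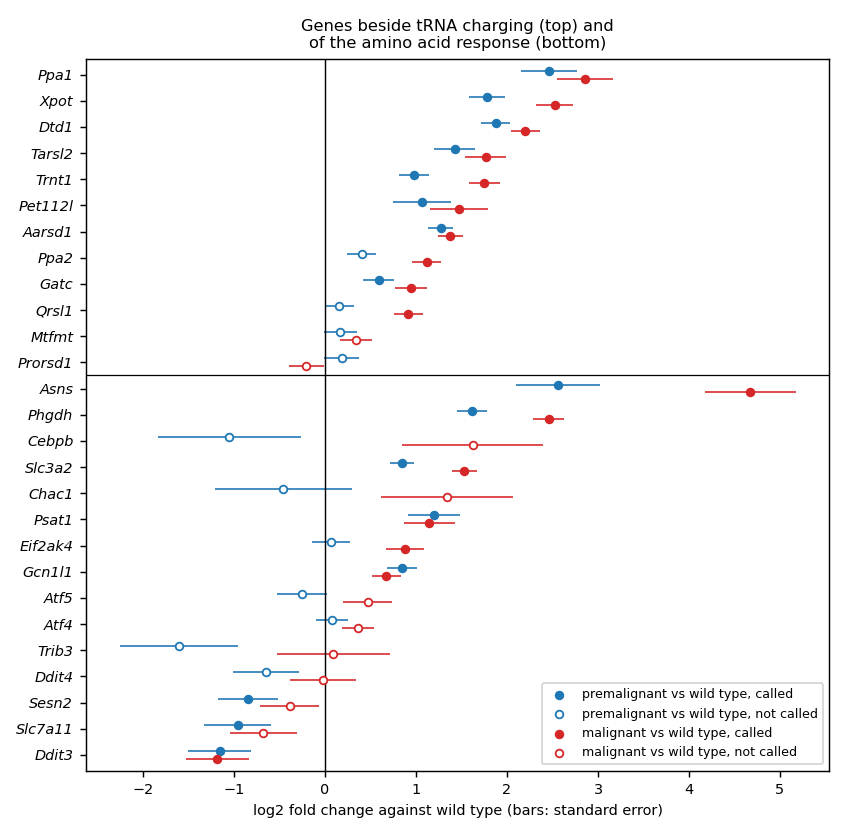
log2 fold change against wild type (x axis, bars are standard errors) of 12 genes beside tRNA charging (top) and 15 genes of the amino acid response (bottom), premalignant in blue and malignant in red, filled where called. Asns reaches 4.67 in malignant cells, Atf4 is open at both stages, and Ddit3 is called lower at both stages.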

How the data were processed

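RNA-seq was measured in 6 libraries, 2 for each stage. The authors sequenced polyadenylated RNA with a kit that does not mark strand, used TopHat to align reads of 50 bp, ran HTSeq (options not given in the sources used here) and deposited raw counts per Ensembl gene. The submitters' processing notes also name CASAVA 1.8.2, Bowtie and DESeq. Deposited tables of the authors' own comparisons were not used.

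Symbols, positions and exon lengths came from GENCODE vM1 (mm9), which may differ from the annotation counted on. Counts were tested with edgeR 4.0.16 (R 4.3.3), TMM, filterByExpr, 3 stages in 1 fit, and DESeq2 1.42.0 as an alternative. CPM and RPKM were computed on TMM-scaled library sizes, which take most genes as unchanged, and standard errors from the fold change and its F statistic. The fit was tested on simulated data. All 39 members were named, and 2 genes of the other lists are not reported here. Members and lists were chosen with earlier results of these data known. Listed symbols without a match were Rn45s, Rmrp, Rpph1, Gatb, Pet112 and Dtd2. Sequence matches in mm9 used blastn.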

Additional observations from a re-analysis of the deposited data

How the results depend on the processing

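Members called higher in premalignant vs. wild type cells numbered 15 when the size of the log2 fold change had to reach 1, which left 4282 genes called, and with no filter on low counts 1 member, Lars2, was called lower there and 1 in malignant vs. wild type cells. Genes called in malignant vs. premalignant cells numbered 2186 by DESeq2, 2810 with no filter, 258 with only the stages compared and 407 at an FDR of 0.05, and members called higher numbered 4 by DESeq2 and with no filter and 0 with upper-quartile or total-count scaling, with only the stages compared, at an FDR of 0.05 and at a log2 fold change of 1 or more in size. Leaving out single libraries gave 2094 to 8455 genes called in premalignant vs. wild type, 5945 to 9200 in malignant vs. wild type and 0 to 3805 in malignant vs. premalignant cells, with 0 genes without either premalignant library. It gave 19 to 34, 30 to 34 and 0 to 6 members called higher and 0, 0 to 1 and 0 called lower. Against the TMM values, upper-quartile scaling moved the median of all genes by -0.08, -0.17 and -0.08 and total-count scaling by -0.21, -0.30 and -0.08 in the 3 comparisons.

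The median of the cytosolic genes was 0.76 (premalignant vs. wild type) and 1.03 (malignant vs. wild type) with total-count scaling, and in malignant vs. premalignant cells 0.16 with either scaling and 0.13 relative to the chromosome. That of the mitochondrial genes was 0.73 and 0.81 with upper-quartile and 0.60 and 0.68 with total-count scaling against wild type, 0.89 with at least 10 counts in every library and 1.04 relative to the chromosome in malignant vs. wild type, and 0.048 and 0.038 with the scalings in malignant vs. premalignant cells. Without single libraries the cytosolic medians were 0.92 to 1.04, 1.20 to 1.41 and 0.19 to 0.29 and the mitochondrial medians 0.74 to 0.87, 0.80 to 0.99 and 0.065 to 0.17. The causes were not tested. The values relative to the chromosome were chosen after seeing the data.

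Signs turned for Fars2 in premalignant vs. wild type cells with total-count scaling (-0.028), for Hars2 against wild type with upper-quartile (-0.033 and -0.086) and total-count scaling (-0.16 and -0.21), with at least 10 counts in every library (-0.010 and -0.0074), without wild type replicate 1 (-0.031 and -0.0051), without premalignant replicate 1 (-0.0061) and without malignant replicate 2 (-0.030), for Lars2 without wild type replicate 1 (0.13 and 0.25) and for Tars2 in malignant vs. premalignant cells without malignant replicate 2 (-0.072). Over all single libraries left out, Hars2 ranged from -0.031 to 0.15 and from -0.030 to 0.22, Lars2 from -1.12 to 0.13 and from -1.20 to 0.25 and Tars2 in malignant vs. premalignant cells from -0.072 to 0.83.

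The stages share replicate numbers, with no label of a shared litter or day. Deviations of same-numbered libraries correlated at 0.51 (wild type and premalignant), 0.19 (wild type and malignant) and 0.26 (premalignant and malignant) over 16683 genes, and replicate 1 was the deeper library throughout. With the replicate number as a block, members called higher in malignant vs. premalignant cells numbered 0, since Lars was no longer called, and Iars2 and Tars2 were called in premalignant vs. wild type cells. In the fit of all libraries the changes of Fars2 and Cars2 against wild type were smaller than the 0.5 that a call required. TMM would hide a rise or fall in RNA content per cell.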
